A study of Mus musculus with 38 samples.

Results

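The comparison described here sets 9 RNA-seq libraries of stressed female mice against 10 of control females, 19 of the 38 libraries of the series, across all genes. The members are the libraries that the labels call female stressed, numbered 1 to 9, and female control, numbered 1 to 10. All were wild-type (labelled WT), and the RNA came from microdissections labelled adBNST, the anterodorsal portion of the bed nucleus (BNST). Stressed females went through 6 weeks of chronic variable mild stress, a random sequence of mild stressors such as altered lighting, cold, wet bedding, cage changes, forced swimming, isolation, restraint, cage tilting and predator sounds, while controls are labelled control only. The labels give no age and no strain beyond the genotype. The other 19 libraries, from 10 control and 9 stressed males, entered the model fit and one comparison at the end. The labels do not tie libraries to animals, and p-values here therefore measure the spread between libraries, which may be partly technical.

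The bed nucleus of the stria terminalis lies between the amygdala and the hypothalamus. Its anterodorsal part holds mostly GABA neurons, many of which make peptides such as enkephalin, somatostatin or corticotropin-releasing hormone, and it is known for its part in sustained anxiety-like states. During stress the adrenal gland releases corticosterone, which enters the brain and acts through the glucocorticoid receptor Nr3c1, a transcription factor that switches on targets such as Fkbp5, Sgk1, Zbtb16 and Cdkn1a.

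Depth did not separate the groups, with 18111251 to 33772403 counts per library in controls and 14573172 to 35319391 in stressed females (two-sided exact permutation test, p = 0.998). Levels are given as CPM, counts scaled to a common library size after TMM adjustment (the usual CPM scale), and 1 count was worth 0.0271 to 0.0785 CPM. All 15 markers of the adBNST and extended amygdala were tested and none was at 0 in any female library. Their summed level ran from 618.6 to 1521 CPM in controls and from 705.9 to 1612 CPM in stressed females, so the groups overlapped. Abundant members weigh most in this sum, among them Sst, at 703 CPM in control library 1 and 812.8 CPM in stressed library 1. Prkcd, another member, had its lowest level of each group in these libraries, at 9.29 and 10.6 CPM. It ran up to 68.4 CPM in controls and 92.1 CPM in stressed females, so the members did not move together. On the first principal component of the female libraries, which held 39.3% of the variance, control libraries 1 and 6 and stressed libraries 1 and 2 stood apart at 44.5 to 64.4, against -30.8 to 4.18 for the other 15. The same 4 had the lowest TMM scaling factors, at 0.870 to 0.887 against 0.993 to 1.04, and the largest share of counts in their top 100 genes, at 17.7% to 20.7% against 13.9% to 16.5%. They had 16247 to 17362 genes with a count, against 17360 to 18991 in the others. Values without these 4 libraries are given below for part of the lists. In bulk tissue, fewer cells of a type and less RNA per cell cannot be told apart.

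No gene passed the test between stressed and control females after correction. EdgeR's quasi-likelihood test called 0 of 16309 genes, or 0.0%, at an adjusted p under 0.05, and the smallest adjusted p was 1. DESeq2 and limma voom called 0 as well. At an unadjusted p under 0.05, 152 genes were on the higher side in stressed females (0.932% of those tested) and 156 on the lower side (0.957%). Together these were 308 genes, or 1.89%, where uniform p-values would give 815. An unadjusted p under 0.05 therefore does not set a gene apart here, and such genes are named as description only. In no gene were all 9 stressed libraries above or all 9 below the 10 controls. Changes are log2 values, stressed minus control, with the standard error (SE). Across all genes the median change was 0.0098, with 8743 genes above 0 and 7564 below.

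Precision was highest for abundant genes. Among 10524 genes with a mean of 10 CPM or more in controls the median SE was 0.127 and the median size of the change was 0.060. A change larger than 0.5 in either direction was found in 9 of them, chosen here by that value, namely Ccdc153, Mir2137, Zbtb16, Cdkn1a, Unc5b, Ebf3, Xdh, Slc17a6 and Plin4. The largest was that of the neuronal transcription factor Ebf3, at -1.09 ± 0.62. Its level ran from 0.200 to 37.2 CPM in controls and from 0.727 to 12.1 CPM in stressed females, so its range in controls enclosed all stressed libraries.

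**Figure D1:**
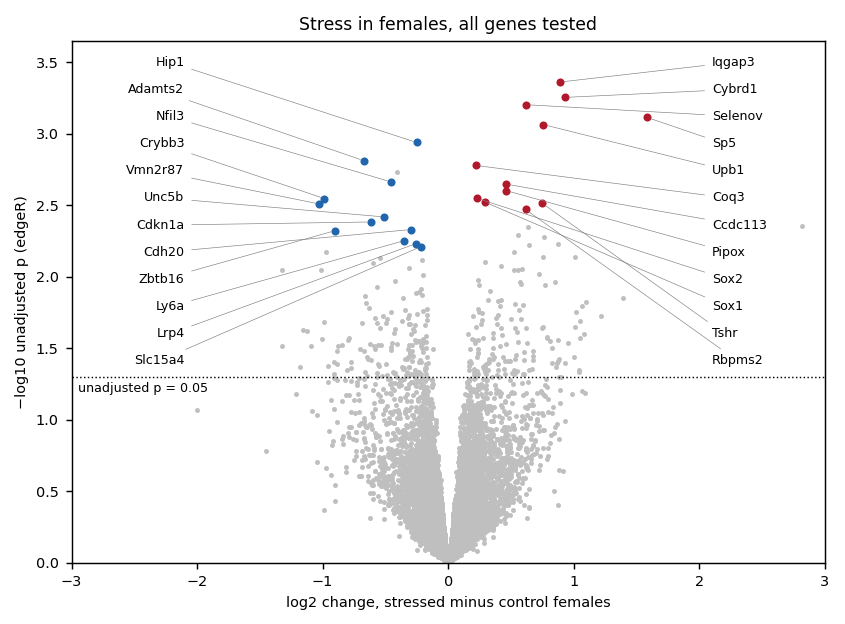
Each point is 1 of the 16309 genes tested, with the log2 change of stressed minus control females on the x axis and minus log10 of edgeR's unadjusted p on the y axis. Red and blue points are the 12 named genes with the smallest p on the higher and on the lower side, and none of them passed after adjustment. The far right point is Capn11 at 2.82, just outside the naming rule.

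The 12 leading genes on the higher side had changes from 0.22 to 1.59, with an adjusted p of 1 in edgeR for each. Iqgap3, a scaffold protein known from proliferating cells (chromosome 3, 88082002 to 88121048, GRCm38.p6), had a lowest, median and highest level of 0.567, 0.832 and 1.20 CPM in controls and of 0.740, 1.70 and 2.82 CPM in stressed females. Here 7 of 9 stressed libraries lay above all controls, and the change was 0.89 ± 0.23. Cybrd1, a membrane enzyme that reduces ferric iron (chromosome 2, 71118054 to 71142926), had 0.449, 1.58 and 2.40 CPM in controls and 1.72, 2.36 and 6.99 CPM in stressed females. All 9 stressed libraries were above the control median but only 4 above every control, with a change of 0.93 ± 0.25. The change was 0.37 ± 0.32 in libraries numbered 1 to 5 and 1.39 ± 0.32 in those numbered 6 and above.

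Selenov encodes selenoprotein V, of the family that carries selenocysteine (chromosome 7, 28284652 to 28291186). Here 7 of 9 stressed libraries exceeded all controls and 8 of 10 controls lay below all stressed libraries. Its levels were 1.23, 1.63 and 2.17 CPM in controls and 2.01, 2.42 and 3.07 CPM in stressed females, a change of 0.62 ± 0.17. Sp5, a transcription factor that responds to Wnt signalling (chromosome 2, 70474923 to 70477726), had 0, 0.209 and 0.375 CPM in controls and 0.247, 0.473 and 1.41 CPM in stressed females. This was the largest change of the 24 leading genes, at 1.59 ± 0.43, on very few counts. Upb1, the last enzyme of pyrimidine breakdown, had 0.748, 1.24 and 2.13 CPM in controls and 1.57, 2.01 and 3.61 CPM in stressed females (0.76 ± 0.21).

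More abundant genes on the higher side had smaller changes. Coq3, a methyltransferase of coenzyme Q synthesis, stood at 13.97, 15.86 and 18.06 CPM in controls and at 16.89, 18.41 and 21.01 CPM in stressed females. With 7 of 9 stressed libraries above all controls and 7 of 10 controls below all stressed ones, its change was only 0.22 ± 0.066. Sox2 and Sox1, transcription factors of neural progenitors that glia and some neurons keep expressing, gave 0.23 ± 0.073 and 0.29 ± 0.092. Sox2 stood at 42.7, 58.9 and 72.6 CPM in controls and at 59.4, 69.8 and 74.5 CPM in stressed females, and Sox1 at 33.2, 46.8 and 54.4 against 42.2, 55.8 and 65.5 CPM. The groups overlapped for both genes, and 9 of 9 stressed libraries for Sox2 and 8 of 9 for Sox1 were above the control median. The remaining 4 were Ccdc113, a protein of motile cilia (0.46 ± 0.14), the peroxisomal oxidase Pipox (0.46 ± 0.14), the thyrotropin receptor Tshr (0.75 ± 0.24) and the RNA-binding protein Rbpms2 (0.62 ± 0.20). Without the 4 libraries that stood apart, Pipox gave 0.27 ± 0.15 and Rbpms2 0.39 ± 0.21.

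**Figure D2:**
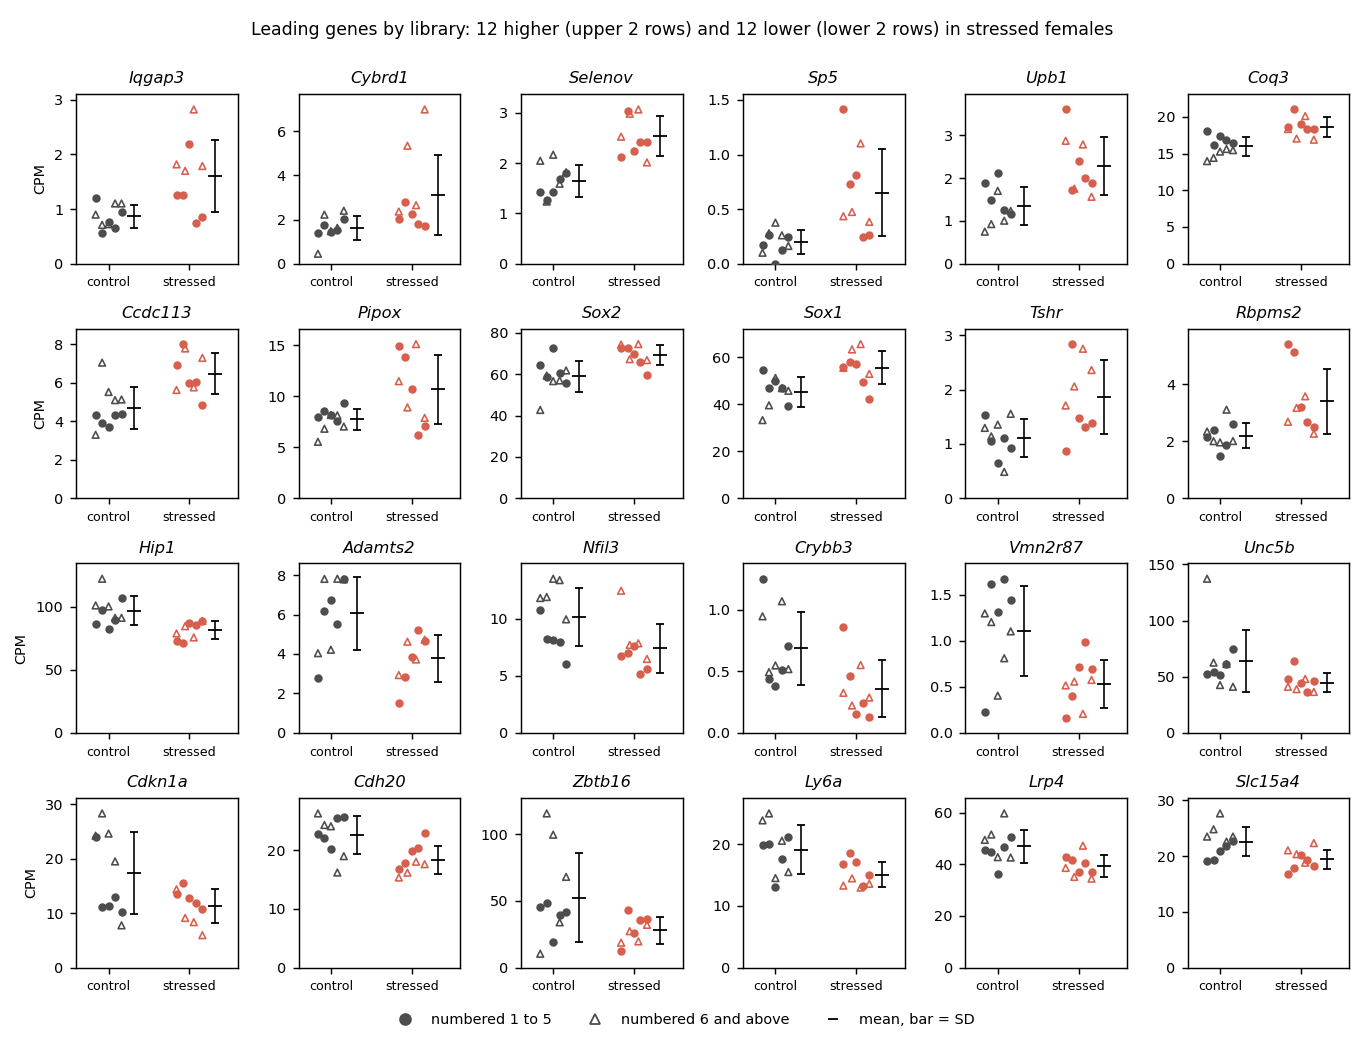
Each panel shows CPM in the 10 control (grey) and 9 stressed (red) female libraries for 1 leading gene, with filled circles for libraries numbered 1 to 5, open triangles for those numbered 6 and above, and the mean with its SD beside them. The groups overlap in all 24 panels, for example between 2.01 and 2.17 CPM for Selenov.

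On the lower side the 12 leading genes had changes from -1.03 to -0.22, and again an adjusted p of 1 in edgeR for each. Hip1, an adaptor that links clathrin-coated vesicles to actin (chromosome 5, 135406496 to 135545323), stood at 82.3, 94.4 and 122 CPM in controls and at 71.1, 84.5 and 88.6 CPM in stressed females. Of the controls, 8 of 10 lay above every stressed library, and the change was -0.25 ± 0.072. Adamts2, the protease that trims procollagen (chromosome 11, 50602085 to 50807573), stood at 2.79, 6.46 and 7.81 CPM in controls and at 1.49, 3.87 and 5.22 CPM in stressed females. All 9 stressed libraries were below the control median, with a change of -0.67 ± 0.20 that was -0.66 in libraries 1 to 5 and -0.67 in the others. Unc5b, a receptor for the guidance cue netrin, had 41.1, 57.6 and 137 CPM in controls and 36.4, 44.4 and 64.1 CPM in stressed females. Its change of -0.51 ± 0.17 was -0.32 without control library 6, the highest of all.

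Other genes on the lower side have roles in adhesion, transport or regulation. The cadherin Cdh20 stood at 16.2, 23.4 and 26.3 CPM in controls and at 15.4, 17.9 and 23.0 CPM in stressed females (-0.30 ± 0.10). Lrp4, a receptor for agrin, gave -0.26 ± 0.089 and the lysosomal transporter Slc15a4 -0.22 ± 0.075. Ly6a, a surface protein of brain endothelium and one of a family of similar genes, had 13.0, 19.97 and 25.0 CPM in controls and 13.0, 14.5 and 18.6 CPM in stressed females (-0.35 ± 0.12). Crybb3, best known as a lens crystallin, gave -0.99 ± 0.31 and the vomeronasal receptor gene Vmn2r87 -1.03 ± 0.32, both below 2 CPM in every library. Vmn2r87 belongs to a large gene family whose reads may be split between copies, so its value is less certain. The rest of the 12, Nfil3, Cdkn1a and Zbtb16, belong to the clock and glucocorticoid lists.

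Genes of the stress axis itself gave no common direction. Of 17 tested peptides, receptors and cofactors, 9 lay above 0 and 8 below, with a median of 0.014 beside 0.0098 for all genes. Crh, the peptide that starts the axis, had 13.6, 23.1 and 39.3 CPM in controls and 17.0, 22 and 23.8 CPM in stressed females, a narrower range inside that of controls (-0.082 ± 0.20). Its receptor Crhr1 gave -0.25 ± 0.17 and its binding protein Crhbp -0.11 ± 0.13. Crhr2, which binds urocortins, was the 1 member with an unadjusted p under 0.05, at 3.58, 5.23 and 8.20 CPM in controls and 3.49, 6.83 and 14.3 CPM in stressed females (0.50 ± 0.23, and 0.33 without stressed library 8). Crhr2 also serves as a marker of the neighbouring lateral septum, whose other markers are described further below. The receptor Nr3c1 stood at 83.4, 122 and 153 CPM in controls and at 95.2, 133 and 146.5 CPM in stressed females, with a change of 0.051 ± 0.11.

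Glucocorticoid-induced targets lay mostly below 0, at 20 of 25 tested, with a median of -0.15, where 46.4% of all genes were below 0. Of the 25, 3 had an unadjusted p under 0.05 on the lower side and 0 on the higher side. Over all genes these shares were 0.957% and 0.932%. Zbtb16, a zinc-finger transcription factor (chromosome 9, 48651797 to 48836225), ran from 10.4 over 43.8 to 115.7 CPM in controls and from 12.6 over 27.3 to 43.5 CPM in stressed females. All 9 stressed libraries were below the control median and 5 of 10 controls above every stressed library, with a change of -0.90 ± 0.30. Cdkn1a, an inhibitor of the cell cycle (chromosome 17, 29090979 to 29100722), had 7.75, 16.2 and 28.3 CPM in controls and 5.94, 11.8 and 15.6 CPM in stressed females (-0.62 ± 0.20). The lipid droplet protein Plin4, named after its values were seen, gave -0.88 ± 0.40, with 1 control library at 59.4 CPM against a control median of 11.3.

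These values came mainly from libraries numbered 6 and above. The list median was -0.021 in libraries 1 to 5, where 13 of 25 members were below 0, and -0.32 in the others, where 23 were, and 12 members were below 0 in both. Zbtb16 gave -0.34 ± 0.41 and -1.43 ± 0.44 in these sets, Cdkn1a -0.11 ± 0.27 and -1.14 ± 0.28, and Fkbp5, a cochaperone of the receptor, 0.21 ± 0.15 and -0.50 ± 0.15. The list's mean level per library, on a log2 scale centred on the 19 libraries, ran from -0.36 to 0.60 in controls and from -0.33 to 0.46 in stressed females, so the groups overlapped. Control libraries 7 and 8 were among the highest, and without either one the median was -0.092 or -0.090. Mt1 and Mt2, metallothioneins that glucocorticoids and metals induce, lay at the other end of the list at 0.30 ± 0.29 and 0.19 ± 0.25, and at 0.0099 ± 0.18 and -0.088 ± 0.17 without the 4 libraries that stood apart.

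**Figure D3:**
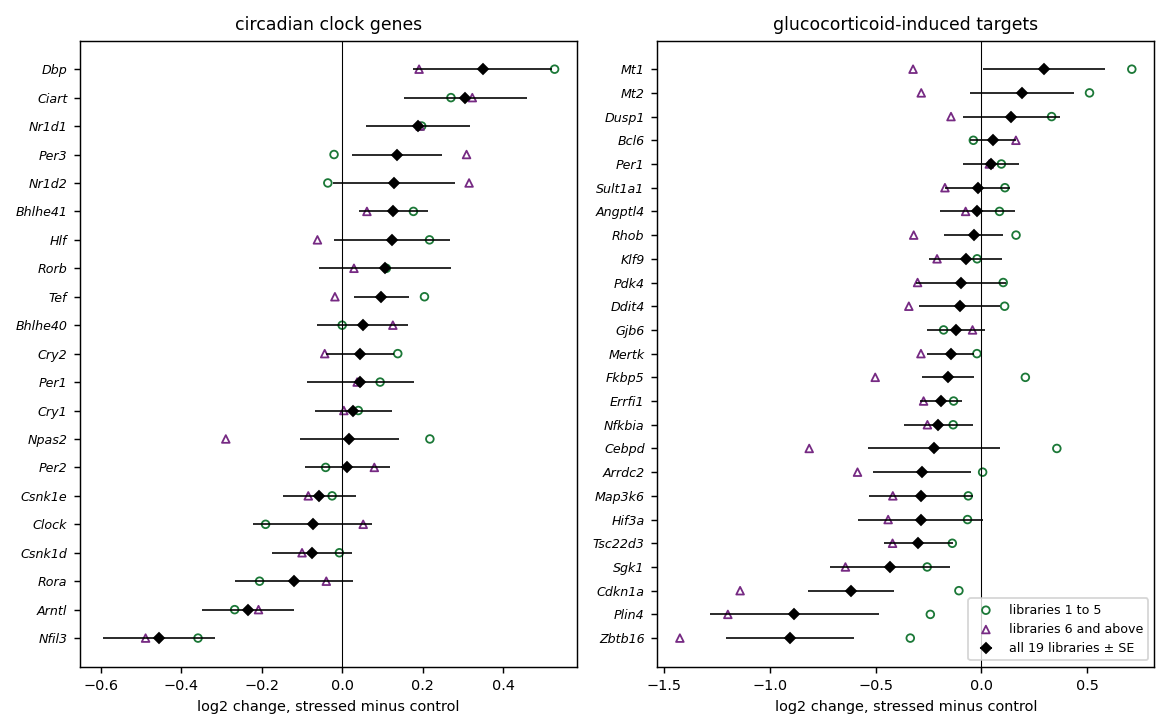
Log2 change of stressed minus control females on the x axis for the 21 clock genes (left) and the 25 glucocorticoid-induced targets (right), with diamonds and SE bars for all 19 libraries, circles for libraries 1 to 5 and triangles for libraries 6 and above. Nfil3 and Arntl are lowest among clock genes in the full comparison, and the triangles of most glucocorticoid targets lie left of the circles.

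Circadian clock genes were tested as well, since altered lighting was among the stressors. In the clock, Clock and Arntl bind E-boxes to drive Per, Cry, Nr1d1 and Dbp genes, Per and Cry proteins close the loop, and Dbp and Nfil3 act in opposite directions on D-box elements. Of 21 tested members, 15 lay above 0 and 6 below, with a median of 0.044. An unadjusted p under 0.05 was found for 2, both on the lower side. Of all genes, 53.6% lay above 0 and 0.957% had such a p on the lower side. Nfil3 (chromosome 13, 52967209 to 52982878) stood at 6.03, 10.36 and 13.5 CPM in controls and at 5.18, 7.00 and 12.5 CPM in stressed females. All but 1 of the stressed libraries were below the control median, and the change was -0.46 ± 0.14, with -0.36 ± 0.16 in libraries 1 to 5 and -0.49 ± 0.17 in the others. Arntl had 35.8, 43.6 and 48.8 CPM in controls and 27.5, 34.5 and 46.4 CPM in stressed females (-0.23 ± 0.11), with 5 of 9 stressed libraries below every control.

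At the other end of the clock list were Dbp, Ciart and Nr1d1. These and the Per genes and Nr1d2 below were named after their values were seen. Dbp stood at 31.1, 37.8 and 66.3 CPM in controls and at 30.1, 51.2 and 79.6 CPM in stressed females (0.35 ± 0.17). Ciart, a repressor of Clock and Arntl, gave 0.31 ± 0.15, but 0.16 ± 0.13 without the 4 libraries that stood apart. The nuclear receptor Nr1d1, which represses Arntl, gave 0.19 ± 0.13, and Per3 0.14 ± 0.11. None of these passed, and Nr1d2, Per1 and Per2 gave 0.13 ± 0.15, 0.044 ± 0.13 and 0.013 ± 0.11.

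Promoters from RefSeq (GRCm38.p6, 250 bases before to 50 after each start) were searched on both strands for the perfect E-box CACGTG and the D-box TTATGTAA, whose reverse complement is TTACATAA. An entry was found for 18 of the 21 clock genes. The E-box was present in 5 of these, Per1, Cry1, Tef, Bhlhe41 and Ciart, and the D-box in 1, Per3. Of all 12715 tested genes with an entry, 10.987% hold the E-box and 0.81% the D-box, and of all 16093 promoters 9.259% and 0.652%. The 250 bases before the start in the table are shown for the member with the most E-boxes and the member with a D-box, 5′ to 3′ on the gene's strand (minus for both), with the matches in capitals. The 3 E-boxes begin 116, 58 and 44 bases before the start and the 2 D-boxes 205 and 158 bases before it. The windows are chr3:95882229-95882478 for Ciart and chr4:151044666-151044915 for Per3.
Ciart: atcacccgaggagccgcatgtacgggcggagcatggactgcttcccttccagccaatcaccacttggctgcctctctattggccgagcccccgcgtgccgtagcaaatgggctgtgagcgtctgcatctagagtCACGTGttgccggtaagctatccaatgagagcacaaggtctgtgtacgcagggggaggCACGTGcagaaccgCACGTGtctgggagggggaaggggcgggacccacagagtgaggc
Per3: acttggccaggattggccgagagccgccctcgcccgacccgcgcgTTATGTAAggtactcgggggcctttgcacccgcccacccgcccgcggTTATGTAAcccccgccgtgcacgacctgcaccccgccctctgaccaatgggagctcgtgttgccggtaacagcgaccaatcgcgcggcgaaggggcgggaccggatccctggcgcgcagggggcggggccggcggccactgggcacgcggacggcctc
Across all tested genes with a promoter entry, the median change was 0.011. It was also 0.011 for the 1397 genes with the E-box and was 0.019 for the 103 genes with the D-box.

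Both cold-inducible RNA-binding proteins lay above 0. Cirbp, which binds mRNAs in mildly cooled cells (chromosome 10, 80165990 to 80172786), stood at 52.8, 65.2 and 78.3 CPM in controls and at 64.6, 83.3 and 110.1 CPM in stressed females. Of 9 stressed libraries, 5 exceeded all controls and 1 lay below the control median, with a change of 0.33 ± 0.13. Rbm3 had 18.01, 30.8 and 47.6 CPM in controls and 28.0, 40.8 and 45.5 CPM in stressed females (0.27 ± 0.18). Each was above 0 in both number sets, at 0.20 ± 0.17 and 0.48 ± 0.18 for Cirbp and 0.086 ± 0.18 and 0.48 ± 0.19 for Rbm3.

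Immediate early genes, which neurons switch on within minutes of activity, had a median of 0.0089, with 13 of 24 above 0 and none at an unadjusted p under 0.05. Fos ran from 6.15 over 15.5 to 34.6 CPM in controls and from 6.55 over 16.4 to 56.4 CPM in stressed females (0.043 ± 0.35). The libraries of either group spread far wider than the group medians differed. Fosl2 gave -0.34 ± 0.23 and Klf4 -0.33 ± 0.18, which was -0.18 without control library 9. For this list 16 of 24 members were above 0 in libraries 1 to 5 and 5 of 24 in the others.

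Neuropeptide genes had a median of -0.071 (-0.026 without the 4 libraries that stood apart), with 10 of 26 above 0 and none at an unadjusted p under 0.05. The median was 0.084 in libraries 1 to 5, with 16 of 26 above 0, and -0.30 in the others, with 5 of 26, and voom gave 0.032 over all libraries. Npy had 46.0, 57.6 and 182 CPM in controls and 49.5, 65.2 and 218 CPM in stressed females (0.25 ± 0.28), with both high ends set by libraries that stood apart. Without those 4 libraries its change was 0.059 ± 0.14. Somatostatin (Sst) gave 0.20 ± 0.25 with them and 0.033 ± 0.16 without, and enkephalin (Penk) 0.17 ± 0.27 and 0.037 ± 0.20. Galanin (Gal), a peptide of arousal and feeding, had 4.69, 6.78 and 9.56 CPM in controls and 3.87, 4.57 and 7.46 CPM in stressed females (-0.39 ± 0.23), with 5 of 9 stressed libraries below every control. Adcyap1, which encodes PACAP, gave -0.58 ± 0.37, but -1.09 ± 0.52 in libraries 1 to 5 and 0.020 ± 0.54 in the others.

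Receptor lists lay mostly below 0 as well. Of 32 neuropeptide receptors 22 lay below 0, with a median of -0.057 that was 0.013 without the 4 libraries that stood apart. Of 27 monoamine and acetylcholine receptors 17 lay below 0, with a median of -0.057. The 1 member of that list at an unadjusted p under 0.05 was the alpha-1D adrenergic receptor Adra1d, at 0.328, 1.00 and 1.85 CPM in controls and 0.310, 0.661 and 0.830 CPM in stressed females (-0.70 ± 0.32). All 9 stressed libraries were below the control median, and 7 of 10 controls were above all stressed ones. The change was -0.085 ± 0.40 in libraries 1 to 5 and -1.11 ± 0.40 in the others. Without the 4 libraries that stood apart Adra1d gave -0.57 ± 0.35, and with voom -0.17. Among 14 gonadal steroid receptors and responsive genes, 9 lay below 0 (median -0.063). The estrogen receptor Esr1 had 2.54, 18.4 and 40.7 CPM in controls and 9.31, 17.1 and 28.1 CPM in stressed females (-0.034 ± 0.27), and aromatase (Cyp19a1) gave -0.33 ± 0.36, which was -0.020 without control library 10.

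Ion channel genes had small negative medians. KCNQ potassium channels, which carry the M-current that restrains firing, and pacemaker channels had 9 of 11 below 0 and a median of -0.076. Kcnq3 stood at 147, 255.5 and 339 CPM in controls and at 129.6, 213 and 337 CPM in stressed females (-0.076 ± 0.19), and Kcnq5 gave 0.053 ± 0.17. Other potassium channels had 30 of 39 below 0, and 3 of these had an unadjusted p under 0.05. Of all genes, 46.4% were below 0 and 0.957% had such a p on the lower side. The small-conductance calcium-activated channel Kcnn2 had 12.6, 26.6 and 32.7 CPM in controls and 17.6, 20.7 and 25.8 CPM in stressed females (-0.26 ± 0.13), with 9 of 9 stressed libraries below the control median. Kcnc1, a channel of fast-spiking neurons, gave -0.19 ± 0.089 and Kcna6, named after its values were seen, -0.18 ± 0.086. The list's median of -0.075 was -0.019 without the 4 libraries that stood apart, with 25 of 39 below 0. Sodium and calcium channels, GABA genes and glutamate genes had medians of -0.022, 0.0099 and -0.027, with 10 of 21, 15 of 26 and 11 of 30 above 0 and none at an unadjusted p under 0.05. The vesicular glutamate transporter Slc17a6 ran from 2.34 over 22.6 to 60.2 CPM in controls and from 6.48 over 11.8 to 26.9 CPM in stressed females (-0.62 ± 0.38). Slc17a6 gave -1.29 ± 0.51 in libraries 1 to 5 and 0.16 ± 0.53 in the others, and -0.32 without control library 5. The GABA-making enzyme Gad2 gave 0.015 ± 0.12.

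Genes of protein synthesis and respiration lay mostly above 0 over all 19 libraries, but on opposite sides of 0 in the number sets. Cytosolic ribosomal proteins lay above 0 in 77 of 80 cases with a median of 0.13, and 0 had an unadjusted p under 0.05. In libraries 1 to 5, 79 of 80 were above 0 (median 0.39), and in the others 79 of 80 were below 0 (median -0.24). Control library 1 and stressed libraries 1 and 2, which stood apart, are in the first set. Control library 6 is the only such library in the second, with a list mean of 0.779 on the centred log2 scale. The remaining controls of the second set had -0.439 to -0.223 and the stressed libraries -0.454 to 0.021. Subunits of oxidative phosphorylation lay above 0 in 64 of 77 cases with a median of 0.058, also with 0 members at an unadjusted p under 0.05. Here 74 of 77 were above 0 in libraries 1 to 5 (median 0.24) and 68 of 77 below 0 in the others (median -0.22). Control library 6 had a list mean of 0.668 here. The remaining controls of the second set had -0.30 to -0.153 and the stressed libraries of that set -0.322 to 0.011. Without the 4 libraries that stood apart, 47 of 77 were above 0 (median 0.019). The median for oxidative phosphorylation was -0.040 without stressed library 2, -0.027 without stressed library 1, 0.15 without control library 1 and 0.16 without control library 6. Rpl4 had 406, 441 and 798.5 CPM in controls and 412, 498 and 1011 CPM in stressed females (0.24 ± 0.16, and 0.10 without stressed library 2). The mean level of the ribosomal list on the centred log2 scale had medians of -0.22 in controls and -0.20 in stressed females, with the 4 high values, from 0.73 to 1.04, in the libraries that stood apart. Its median change was 0.053 without those 4, -0.0092 without stressed library 2 alone, 0.026 without stressed library 1, 0.24 without control library 1 and 0.27 without control library 6. Ribosomal protein genes share sequence with many pseudogenes, so their counts are less certain than others.

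Other lists had medians between -0.056 and 0.082. Cholesterol genes had a median of 0.040 (15 of 25 above 0), heat shock and endoplasmic reticulum chaperones 0.00034 (14 of 27), endocannabinoid genes 0.017 (4 of 8), perineuronal net genes -0.055 (3 of 11) and neurotrophins with their receptors -0.056 (2 of 8). In the last list the low-affinity receptor Ngfr gave -0.53 ± 0.26, with an unadjusted p under 0.05. Among interferon-response and antigen-presentation genes 20 of 30 lay above 0 (53.6% of all genes did), with a median of 0.082. On the higher side 2 had an unadjusted p under 0.05, beside 0.932% of all genes. These were Ifit3, at 2.59, 5.27 and 10.2 CPM in controls and 4.37, 6.71 and 18.5 CPM in stressed females (0.58 ± 0.24), and its near-identical neighbour Ifit3b (0.54 ± 0.25), whose reads cannot be fully told apart. Without the 4 libraries that stood apart they gave 0.31 ± 0.25 and 0.21 ± 0.22, and without stressed library 9 the list median was -0.0059.

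**Figure D4:**
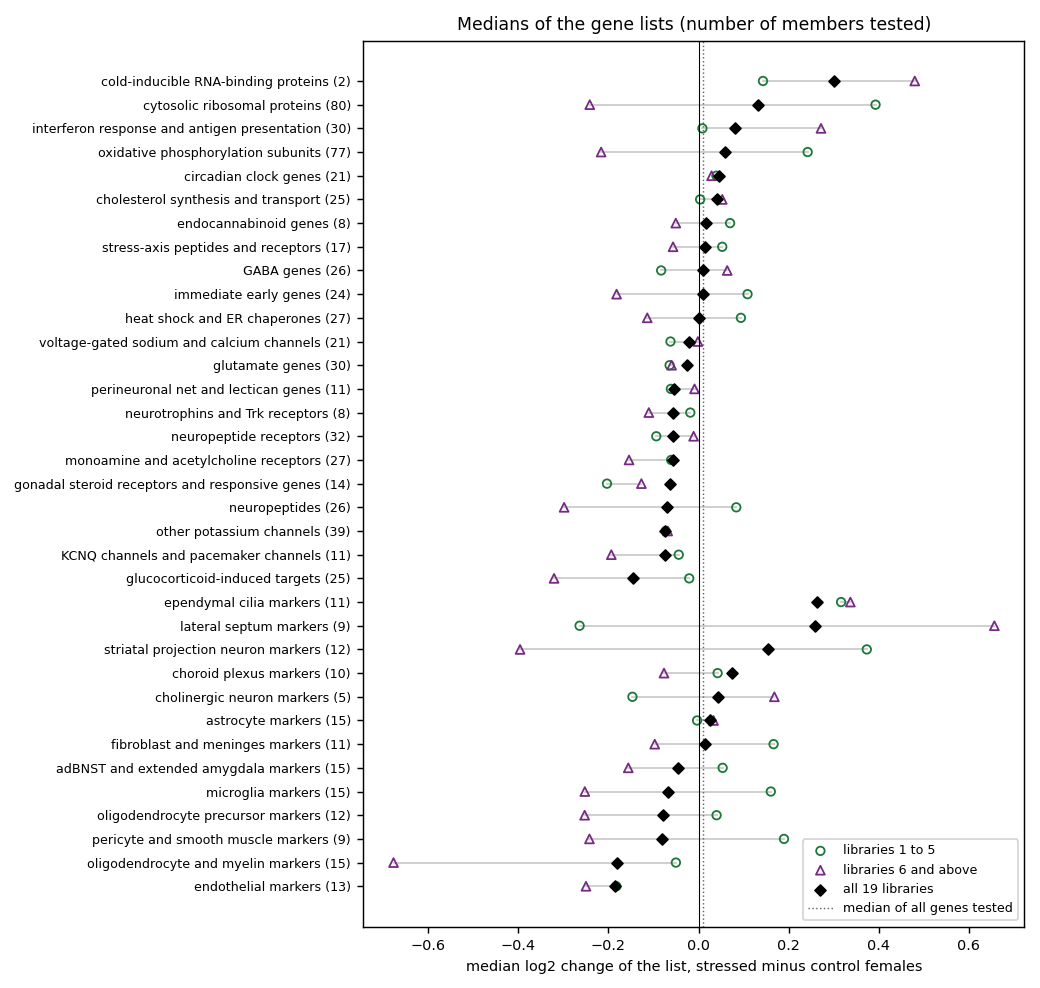
Median log2 change of stressed minus control females for each gene list with more than 1 tested member, process lists above and marker lists below, for all 19 libraries (diamonds), libraries 1 to 5 (circles) and libraries 6 and above (triangles). The dotted line is the median of all genes, 0.0098, and for ribosomal proteins the circle and triangle lie on opposite sides of it at 0.39 and -0.24.

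Markers of cell types were compared in the same way, since a dissection can take up more or less of each. Oligodendrocyte and myelin markers lay below 0 in 15 of 15 cases, with a median of -0.18, and oligodendrocyte precursor markers in 10 of 12, with a median of -0.078. In libraries 1 to 5 the medians were -0.050 for myelin (9 of 15 below 0) and 0.040 for precursor markers (6 of 12). In the others they were -0.68 (15 of 15) and -0.25 (10 of 12). Among the others, control library 6 had a myelin list mean of 0.91 on the centred log2 scale. The remaining controls there had -0.949 to 0.146 and the stressed libraries -1.003 to -0.405. Transferrin (Trf), made in brain by oligodendrocytes, stood at 238.5, 423 and 814.5 CPM in controls and at 206, 325 and 497 CPM in stressed females (-0.44 ± 0.21). Cntn2, an adhesion protein of myelinated axons, gave -0.34 ± 0.16, and in the precursor list Gpr17 gave -0.30 ± 0.14 and Neu4 -0.21 ± 0.10. Gpr17 gave -0.0093 ± 0.17 in libraries 1 to 5 and -0.53 ± 0.18 in the others, and -0.070 with voom. Summed over the list, myelin markers ran from 5248 to 25450 CPM in controls and from 5149 to 27570 CPM in stressed females. This range between libraries of 1 group was far larger than the difference between groups, and the list median ranged from -0.35 without stressed library 2 to -0.090 without stressed library 7. Leaving out the 4 libraries far from the rest gave -0.32, voom -0.40 and a number-set term -0.34.

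Endothelial markers lay below 0 in 13 of 13 cases, with a median of -0.19 that was -0.095 without the 4 libraries that stood apart. The junction protein Cdh5 had 13.9, 16.4 and 23.0 CPM in controls and 11.1, 13.3 and 17.0 CPM in stressed females (-0.36 ± 0.14), with 7 of 9 stressed libraries below every control. Pericyte and smooth muscle markers had 5 of 9 below 0 (median -0.081, but 0.046 without the 4), with the channel subunit Abcc9 at -0.36 ± 0.18. Astrocyte markers had 10 of 15 above 0 (median 0.026, but -0.035 without the 4), with the glial factor Sox9 at 34.2, 39.2 and 42.9 CPM in controls and 36.1, 42.6 and 65.7 CPM in stressed females (0.25 ± 0.093, and 0.11 ± 0.089 without the 4 libraries). Microglia markers had 10 of 15 below 0 (median -0.068, but 0.023 without the 4). The 1 tested blood marker, Alas2, gave -0.18 ± 0.21, and -0.079 without stressed library 1.

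Ependymal markers, from the ciliated cells that line the ventricles, lay above 0 in 11 of 11 cases, with a median of 0.26 and none at an unadjusted p under 0.05. Both number sets gave 11 of 11 above 0, with medians of 0.32 and 0.34, and the median was 0.29 without the 4 libraries that stood apart. Cfap126, a protein of motile cilia, had 2.05, 4.35 and 9.16 CPM in controls and 2.45, 8.30 and 14.2 CPM in stressed females (0.64 ± 0.36). The list's summed level ran from 37.8 to 191.8 CPM in controls and from 53.7 to 208 CPM in stressed females, and its median change from 0.16 without stressed library 7 to 0.46 without control library 9. Choroid plexus and fibroblast markers had medians of 0.074 and 0.014, with 6 of 10 and 6 of 11 above 0, and of 0.19 and -0.037 without the 4 libraries that stood apart.

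Markers of neighbouring regions had medians of opposite sign in the libraries numbered 1 to 5 and those numbered 6 and above. Striatal projection neuron markers lay above 0 in 11 of 12 cases (median 0.16), with 12 of 12 above 0 in libraries 1 to 5 (median 0.37) and 0 of 12 in the others (median -0.40). Among the others, control library 6 had a striatal list mean of 0.886 on the centred log2 scale. The remaining controls there had -0.875 to -0.40 and the stressed libraries -0.864 to -0.475, so apart from control library 6 the groups overlapped. The striatal median was -0.029 without stressed library 1, 0.023 without stressed library 2, 0.26 without control library 1, 0.27 without control library 6 and 0.076 without all 4. Lateral septum markers lay above 0 in 8 of 9 cases (median 0.26), with 2 of 9 above 0 in libraries 1 to 5 (median -0.26) and 9 of 9 in the others (median 0.66). Beside Crhr2, the list member Igfbpl1 had an unadjusted p under 0.05 (0.56 ± 0.23). Its levels were 1.48, 2.43 and 4.04 CPM in controls and 2.12, 3.45 and 6.92 CPM in stressed females. The septal median was 0.10 without stressed library 7 and 0.11 without stressed library 8, the 2 highest in this list at 1.08 and 1.00 on the centred log2 scale. Without the 4 libraries that stood apart it was 0.32, with 8 of 9 above 0. Cholinergic markers and markers of the adBNST and extended amygdala had medians of 0.042 and -0.045, with 3 of 5 and 6 of 15 above 0. The part of these cell-type and regional markers in the values of the other lists was not tested.

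**Figure D5:**
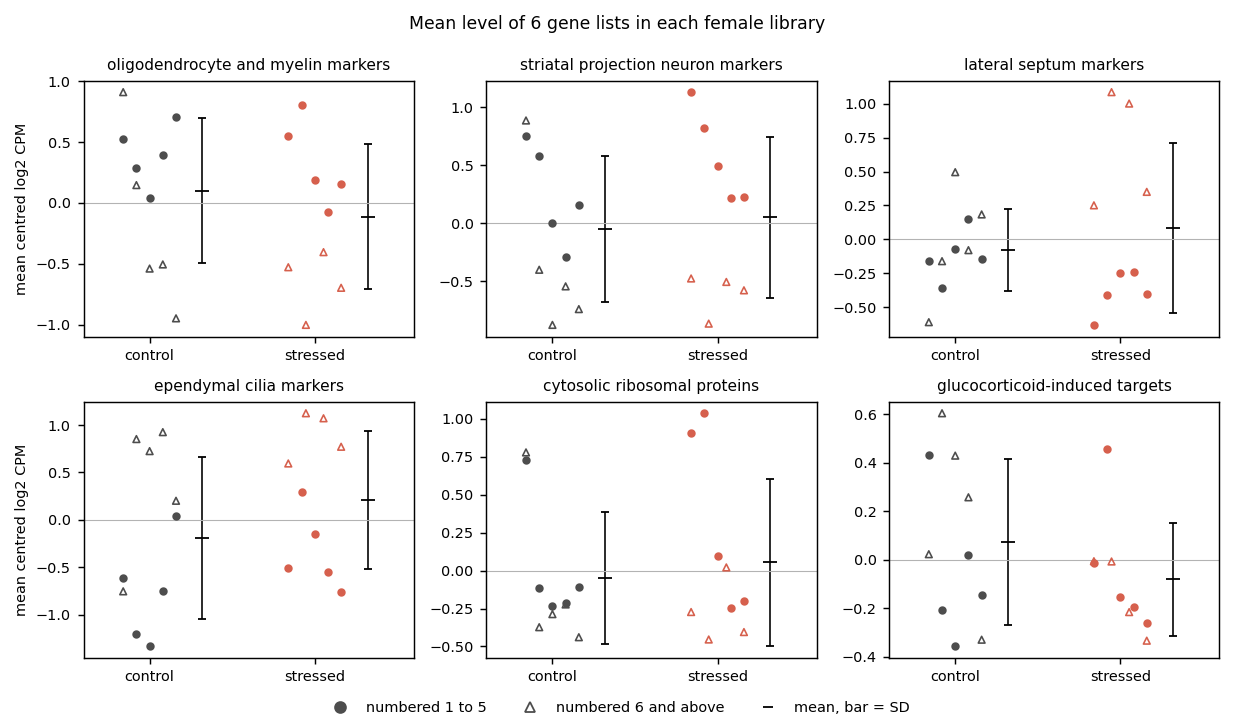
Mean level of 6 lists in each female library, as log2 CPM centred on the 19 libraries (y axis), for control (grey) and stressed (red) groups, with filled circles for libraries 1 to 5, open triangles for libraries 6 and above, and the mean with its SD beside them. The groups overlap in every panel, and ribosomal protein levels are between 0.73 and 1.04 in 4 libraries and at most 0.10 in the other 15.

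Libraries numbered 1 to 5 (5 per group) and those numbered 6 and above (5 controls and 4 stressed) were also compared as separate sets, within 1 fit. The labels do not say what the numbers stand for. On the second principal component of the female libraries, with 13.7% of the variance, the sets did not overlap. Libraries 1 to 5 lay at -22.95 to 0.98 and the others at 5.43 to 35.2. The gene Rn45s took up 0.142% to 2.14% of counts in libraries 1 to 5 and 0.783% to 4.81% in the others. What separates the sets was not tested. EdgeR called 0 genes in either set after adjustment. At an unadjusted p under 0.05 the first set had 211 genes on the higher side (1.29%) and 226 on the lower side (1.39%), and the second set 287 (1.76%) and 325 (1.99%). On the higher side 5 genes were in both, 2.37% of the first list and 1.74% of the second, namely Cfap126, Mamdc2, Pycr1, Selenov and Sp5. On the lower side 7 were, 3.10% and 2.15%, namely Adamts2, Crybb3, Gm15663, Nefm, Nfil3, Slc38a2 and Vmn2r87. In opposite lists were 6 genes, higher in the first set and lower in the second, 2.84% and 1.85% of these lists, and 5 the other way, 2.21% and 1.74%. The shares in the same and in opposite lists lay between 1.74% and 3.10%, beside 1.29% to 1.99% of all genes.

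Among the shared genes outside the leading 24, all named after their values were seen, Slc38a2, a neutral amino acid transporter, stood at 86.6, 129.6 and 162 CPM in controls and at 91.7, 107 and 119 CPM in stressed females. Of the controls, 8 of 10 lay above every stressed library, and the sets gave -0.34 ± 0.14 and -0.31 ± 0.15. Pycr1, an enzyme of proline synthesis, gave 0.54 ± 0.25 and 0.70 ± 0.26, and the neurofilament gene Nefm -0.32 ± 0.14 and -0.30 ± 0.15. Across all genes, the changes in the sets ran against each other, with a Spearman correlation of -0.283 and the same sign in 37.8% of genes. For genes at 10 CPM or more the correlation was -0.485. Of the libraries that stood apart, the first set held control library 1 and stressed libraries 1 and 2. The second set held control library 6 only. The part of these libraries in the correlations was not tested. Genes are not independent, and these values are a description of 2 sets of libraries that were normalised together. The difference between the sets passed edgeR's test for 0 genes (smallest adjusted p = 0.760, with 790 at an unadjusted p under 0.05). All 24 leading genes had the same sign in both sets, which their choice by p over all libraries favours.

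The test of whether the stress effect differed between females and males called 0 genes, or 0.0%, in edgeR (smallest adjusted p = 0.514). At an unadjusted p under 0.05, 394 genes had a more positive change in females (2.42%) and 342 a more negative one (2.1%). DESeq2 and voom called 0 genes for this difference too. Of the 152 genes on the higher side in females, 59 were above 0 in males (38.8%, beside 45.0% of all genes), and of the 156 on the lower side, 65 were below 0 in males (41.7%, beside 55.0%). With the same sign and an unadjusted p under 0.05 in males were 1 of the former, Sp8, and 3 of the latter, Fabp7, 1110032F04Rik and Klhl40.

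In males, none of the 24 leading genes had an unadjusted p under 0.05 and 11 had the same sign there. For 17 the difference between the sexes had an unadjusted p under 0.05, beside 4.51% of all genes, with a smallest adjusted p of 0.845 in edgeR. Since that difference contains the female contrast by which the 24 were chosen, their choice favours such a count, and it is a description only. Zbtb16 gave 0.51 ± 0.30 in males (difference -1.41 ± 0.43), Adamts2 0.19 ± 0.19 (difference -0.87 ± 0.28) and Hip1 0.082 ± 0.072 (difference -0.33 ± 0.10). Nfil3 gave -0.034 ± 0.14 (difference -0.42 ± 0.20), Selenov -0.076 ± 0.17 (difference 0.70 ± 0.24) and Cirbp -0.016 ± 0.13 (difference 0.35 ± 0.18). List medians in males were -0.34 for ribosomal proteins, -0.13 for ependymal, 0.17 for endothelial and -0.16 for myelin markers, and -0.075 for glucocorticoid-induced targets. They were -0.29 for oxidative phosphorylation, -0.33 for striatal, 0.42 for lateral septum and 1.82 for choroid plexus markers, beside -0.022 for all genes. Across all genes the changes in females and in males had a Spearman correlation of -0.29. Other lists are not given for males.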

How the data were processed

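Sequencing was of poly-A RNA with stranded libraries, per the labels' protocols. The deposited table held raw read counts per gene symbol, 1 column per library. STAR, featureCounts and DESeq2 were used with mm10, per the submitters' processing notes. Versions, annotation and the strand setting were not given in the sources used here. All columns matched a library by name.

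Counts were tested with edgeR 4.0.16 (quasi-likelihood, filterByExpr by group, TMM) in R 4.3.3, with 4 group means over all 38 libraries, equal to the sex, condition and sex-by-condition model that the series names. Of 25230 genes, 16309 were tested. P-values were adjusted by Benjamini-Hochberg, with a threshold of 0.05. Coordinates came from RefSeq by symbol for 16190 tested genes. The code was tested on simulated data. There 43 of 100 genes with a log2 change of 0.5 in size and 92 of 100 with a change of 1 were recovered. Another 14 unchanged genes were called, so calls can be false and changes of 0.5 can often be missed. The changed genes were drawn from those with a mean above 1 CPM. Counts were drawn independently, without libraries that stand apart or number sets. Recovery for genes below 1 CPM was therefore not examined.

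Members, lists and tests were chosen with earlier results of these data known. The named genes are the 12 with the smallest p in each direction (leaving out unnamed models and sex-linked genes), the 2 of smallest p in each list, and a panel reported whatever its result, with some left out for length and a few items not reported here. Of the 36 lists, the plot of list medians shows all but the blood list, which has 1 tested member. They are described by counts and medians, not tested.

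Alternatives were size factors from DESeq2, keeping all low counts, DESeq2 1.42.0 itself, limma 3.58.1 voom with quality weights, the replicate block, a number-set term, female libraries only, and leaving out libraries. Log2 CPM used a prior count of 2.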

Additional observations from a re-analysis of the deposited data

Results flagged for a closer look

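Within groups, 15 values of 13 named genes stood far from the others of their group by Dixon's test on log2 CPM. They were found in 212 groups examined (106 genes in control and stressed females), 7.08%, where chance gives about 5%.

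Control library 6 accounted for 6 of them. It had the lowest Cybrd1 (0.449 CPM, others 1.37 to 2.40), Sox2 (42.7, others 55.6 to 72.6), Kcnn2 (12.6, others 23.1 to 32.7) and Gabra5 (35.6, others 48.1 to 66.1). It also had the highest Unc5b (137, others 41.1 to 74.4) and Tyrobp, a microglial adaptor (18.2, others 6.74 to 9.69). Control library 1 had the highest Six3, a forebrain transcription factor (185, others 64.6 to 101), and control library 3 the lowest Sp5 (0, others 0.0998 to 0.375).

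Among stressed females, library 2 had the highest Gfap, the astrocyte filament (458 CPM, others 59.6 to 135), and Unc5b (64.1, others 36.4 to 48.2). Library 1 had the lowest Adamts2 (1.49, others 2.84 to 5.22), library 3 the lowest Cyp19a1 (0.254, others 1.06 to 2.14) and library 4 the lowest Tyrobp (4.68, others 6.91 to 9.57). Library 6 had the highest Nfil3 (12.5, others 5.18 to 7.85) and library 8 the highest Crhr1 (15.3, others 6.94 to 9.42).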

How the results depend on the processing

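EdgeR, DESeq2 and voom called 0 genes for stress in females in all 27 alternatives, with a smallest adjusted p of 0.0779 (voom), and 0 for the difference from males in each of these but the female libraries only, which hold no males. Genes at an unadjusted p under 0.05 numbered 308, and over 1.5 times as many without a low-count filter (869), with voom (818), with a number-set term (468) and without control library 1 (467). Without the filter more genes were tested, so 869 is a count over a larger number of genes. The labels do not say what a shared number means. The correlations of 9 same-numbered pairs ran from -0.60 to 0.89 and 7 were over 0.1, but 1 of 9 stressed libraries was closest to its own number, and the replicate block gave 434 such genes and 0 past adjustment. Of 106 named genes, 85 kept their sign throughout. Voom reversed Klf4 (0.029), Gfap (-0.15), Tmem119 (0.11), Gbx1 (-0.027), Crhbp (0.023), Esr1 (0.034) and Pdyn (0.058). The replicate block reversed Fos (-0.17) and Esr1 (0.15), the number-set term Kcnq5 (-0.0059), and leaving out the 4 libraries that stood apart Gfap (-0.079), Ido1 (-0.040) and Slc5a7 (0.0066). Leaving out single libraries gave ranges across 0 for Crh (-0.15 to 0.042), Esr1 (-0.17 to 0.19), Fos (-0.36 to 0.19), Gad2 (-0.036 to 0.061), Gfap (-0.10 to 0.57), Ido1 (-0.010 to 0.50), Kcnq3 (-0.16 to 0.0049), Kcnq5 (-0.021 to 0.12), Lhx8 (-0.029 to 0.24), Npy (-0.017 to 0.48), Nr3c1 (-0.0012 to 0.099), Penk (-0.098 to 0.33), Prkcd (-0.11 to 0.22), Slc18a3 (-0.13 to 0.23) and Sst (-0.012 to 0.39). Medians of lists also crossed 0. Voom did so for neuropeptides (0.032), monoamine and acetylcholine receptors (0.00056), oxidative phosphorylation (-1.8e-05), astrocyte (-0.056), microglia (0.16), cholinergic (-0.027) and adBNST markers (0.00035). The number-set term did so for the stress axis (-0.015), immediate early genes (-0.052) and striatal markers (-0.0086), and the replicate block for immediate early (-0.078) and perineuronal net genes (0.0030). DESeq2 did so for fibroblast markers (-0.0061). Chaperones crossed 0 in 5 settings other than leaving out single libraries, down to -0.011. Leaving out single libraries did so, beside lists given above, for stress axis (-0.065), immediate early (-0.11), sodium and calcium channel (0.016) and GABA genes (-0.039). It also did so for gonadal steroid (0.017), chaperone (-0.026), cholesterol (-0.0068), endocannabinoid (-0.050) and perineuronal net genes (0.020). Among markers these were microglia (0.0078), choroid plexus (-0.033), fibroblast (-0.11), cholinergic (-0.062) and adBNST (0.0061). The replicate block gave -0.35 for myelin markers. The cause was not tested. Depth limits genes near 1 CPM, where 1 count is worth up to 0.0785 CPM.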
